A study of Mus musculus with 6 samples.

Results

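The genes described here encode the proteins of the cytoplasmic ribosome. They were chosen by name on the array, as RPL or RPS followed by a number and at most 1 letter, with RPLP0, RPLP1, RPLP2 and RPSA added and the RPS6K kinases left out. The rule found 86 of 46643 probes, which carried 58 of the 34325 names on the array. Of these names, 35 belong to the large subunit, 21 to the small subunit and 2 to paralogs, Rpl3l and Rps27l. The rule used names only, so no measured value chose the members.

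CCE mouse embryonic stem cells were kept without feeders in serum and leukemia inhibitory factor and received plasmids coding for a short hairpin RNA (shRNA). The 3 groups carried a hairpin against GFP (the control), Prmt6 shRNA1 or Prmt6 shRNA2, with 2 Illumina bead arrays each. Every group was selected in puromycin for 4 days from 18 h after transfection, so the controls share the transfection and the drug. Nothing in the labels says that replicates were separate cultures, so p-values measure the spread between these arrays, which may be technical.

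A ribosome has a small subunit, which reads the messenger RNA, and a large subunit, which joins amino acids. Each subunit holds its own set of proteins, most of them coded by a single active gene and needed in equal numbers. Messenger RNAs for ribosomal proteins typically begin with a run of pyrimidines, the 5′ terminal oligopyrimidine (TOP) tract, through which the mTOR pathway sets their translation. PRMT6 is an arginine methyltransferase known for modifying histone H3. Several ribosomal proteins, among them RPL5, RPL11, RPL23 and RPL26, are also known to bind the ubiquitin ligase MDM2 or to act on p53 when free of the ribosome.

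Pyrimidine runs near the annotated start are shown for 6 member genes that have one of at least 8 bases, of which Rpl28 serves as an example alone and the others recur in the results. Each sequence spans 15 bases on either side of the start annotated by RefSeq on mouse build GRCm38.p6, is written 5′ to 3′ on the strand of the gene, and has its longest run of C and T in capitals.
Rpl13 (chr8:123102335-123102364, plus strand): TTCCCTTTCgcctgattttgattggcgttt
Rps24 (chr14:24490663-24490692, plus strand): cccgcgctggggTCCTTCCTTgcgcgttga
Rps27 (chr3:90213634-90213663, minus strand): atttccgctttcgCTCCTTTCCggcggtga
Rps27l (chr9:66946071-66946100, plus strand): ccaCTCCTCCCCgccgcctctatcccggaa
Rps18 (chr17:33955651-33955680, minus strand): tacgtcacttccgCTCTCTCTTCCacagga
Rpl28 (chr7:4792950-4792979, plus strand): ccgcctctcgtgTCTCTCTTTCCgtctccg
RefSeq gave a window for 41 of the 58 genes. A run of at least 8 C or T bases, searched on the strand of the gene alone, was present in 17 of those 41 windows (41.5%). The same run was present in 2051 of 17492 windows of protein-coding genes (11.7%). The longest run had a median of 5 bases in the members and 4 bases over all windows. In Rps18, Rpl28, Rps24 and Rps27 the run crosses the annotated start, whereas in Rpl13 and Rps27l it lies wholly before it. Most member windows hold no run of that length. These matches describe the letters in the windows and were not related to the array values.

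The arrays registered signal for most members. A probe counted as detected on an array when its detection p was under 0.01, and it was kept for testing when detected on at least 2 of the 6 arrays. By that rule 65 member probes of 50 genes were kept, among 9138 probes in all. Of the 86 member probes, 57 were detected on all 6 arrays, 20 on none and 1, a probe of Rpl28, on a single array. Rpl17, Rpl18, Rpl29, Rplp0, Rplp2, Rps13, Rps15a and Rpsa had no kept probe and are not analysed here. Member probes took between 8.27% and 9.78% of the summed signal of an array, with the ranges of the 3 groups overlapping. Detected probes numbered from 5782 to 10928 over the arrays, and the array with the fewest was Prmt6 shRNA2 replicate 2.

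The targeted gene was measured first. The Prmt6 probe 105360154 had deposited intensities of 390 and 266 with the GFP hairpin, 48.3 and 148 for Prmt6 shRNA1 and 97.8 and -21.6 for Prmt6 shRNA2. Both GFP arrays lay above all 4 Prmt6 arrays. On the normalized log2 scale this probe was 1.84 ± 0.38 (limma SE) lower with both hairpins together. The difference did not pass adjustment over all kept probes (limma adjusted p = 0.135). The other kept Prmt6 probe, 106200164, differed by -1.475 ± 0.265 (limma adjusted p = 0.105). The first was detected on 3 arrays and the other on 2. Both belong to the second of the array's 2 series of probe numbers, part of which dropped on Prmt6 shRNA2 replicate 2, as described below. The value of -21.6 came from that array, and the part of the drop in the Prmt6 differences was not tested. Of 9 embryonic stem cell markers on the array, 7 had a probe detected on every array, and no fibroblast or feeder marker was detected on any.

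With both Prmt6 hairpins considered jointly, no ribosomal protein probe passed the test. Differences are log2 values of the Prmt6 group minus the GFP group after neqc normalization, tested with limma and adjusted by the Benjamini-Hochberg method over all 9138 probes. A call needed an adjusted p under 0.05. The count was 0 of 65 members higher, where 0.317% of all kept probes were called, all of them higher, and 0 of 65 lower, where 0% were. The member with the lowest adjusted p was Rpl13, at 0.361. The median member difference was -0.03, beside -0.02 over all kept probes. Large subunit probes had a median of -0.07 (13 of 36 above 0) and small subunit probes one of 0.02 (14 of 27 above 0). In these bulk samples, fewer cells of a type and less RNA per cell cannot be told apart.

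Taken singly, neither hairpin moved a ribosomal protein probe past the threshold. With Prmt6 shRNA1 the count was 0 of 65 higher, where 0.536% of all kept probes were called, and 0 of 65 lower, where 0.0109% were (0.547% in either direction). With Prmt6 shRNA2 it was 0 of 65, where 0% of all probes were called, and the lowest adjusted p in limma was 0.190, for Rpl13. Between the hairpins, Prmt6 shRNA2 minus Prmt6 shRNA1 gave 0 of 65, where 0.0328% were called. At an unadjusted limma p under 0.05 there were 1 (both hairpins), 0 (Prmt6 shRNA1), 2 (Prmt6 shRNA2) and 2 (between hairpins) members, where that limit took 12.8%, 10.2%, 15% and 10.1% of all kept probes. These members were Rpl13 in 3 comparisons and Rpl3l in the last 2. The comparisons with the GFP hairpin share its 2 arrays.

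The intervals say how large a difference these 6 arrays leave possible for each member. With both hairpins together, the 95% interval of the difference lay within a 2-fold change in either direction for 57 of 65 members (87.7%), as it did for 66.8% of all kept probes. It lay within a 1.5-fold change for 33 of 65 (50.8%), beside 20.6% of all. For Prmt6 shRNA1 alone, 57 of 65 lay within 2-fold (87.7%, beside 58.8%) and 21 within 1.5-fold (32.3%, beside 10.8%). For Prmt6 shRNA2 alone, 50 of 65 lay within 2-fold (76.9%, beside 54.2%) and 19 within 1.5-fold (29.2%, beside 9.26%). Between the hairpins, 53 of 65 lay within 2-fold (81.5%, beside 57.1%) and 17 within 1.5-fold (26.2%, beside 9.93%). For most members, then, a doubling or a halving was outside the interval in each comparison, and from 17 to 33 of the 65 intervals, by comparison, left out a 1.5-fold change as well. The 2 replicates of a group differed by a median of 0.13 log2 units over the members with the GFP hairpin, 0.16 with Prmt6 shRNA1 and 0.20 for Prmt6 shRNA2. Over all kept probes those medians were 0.23, 0.30 and 0.28.

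**Figure D1:**
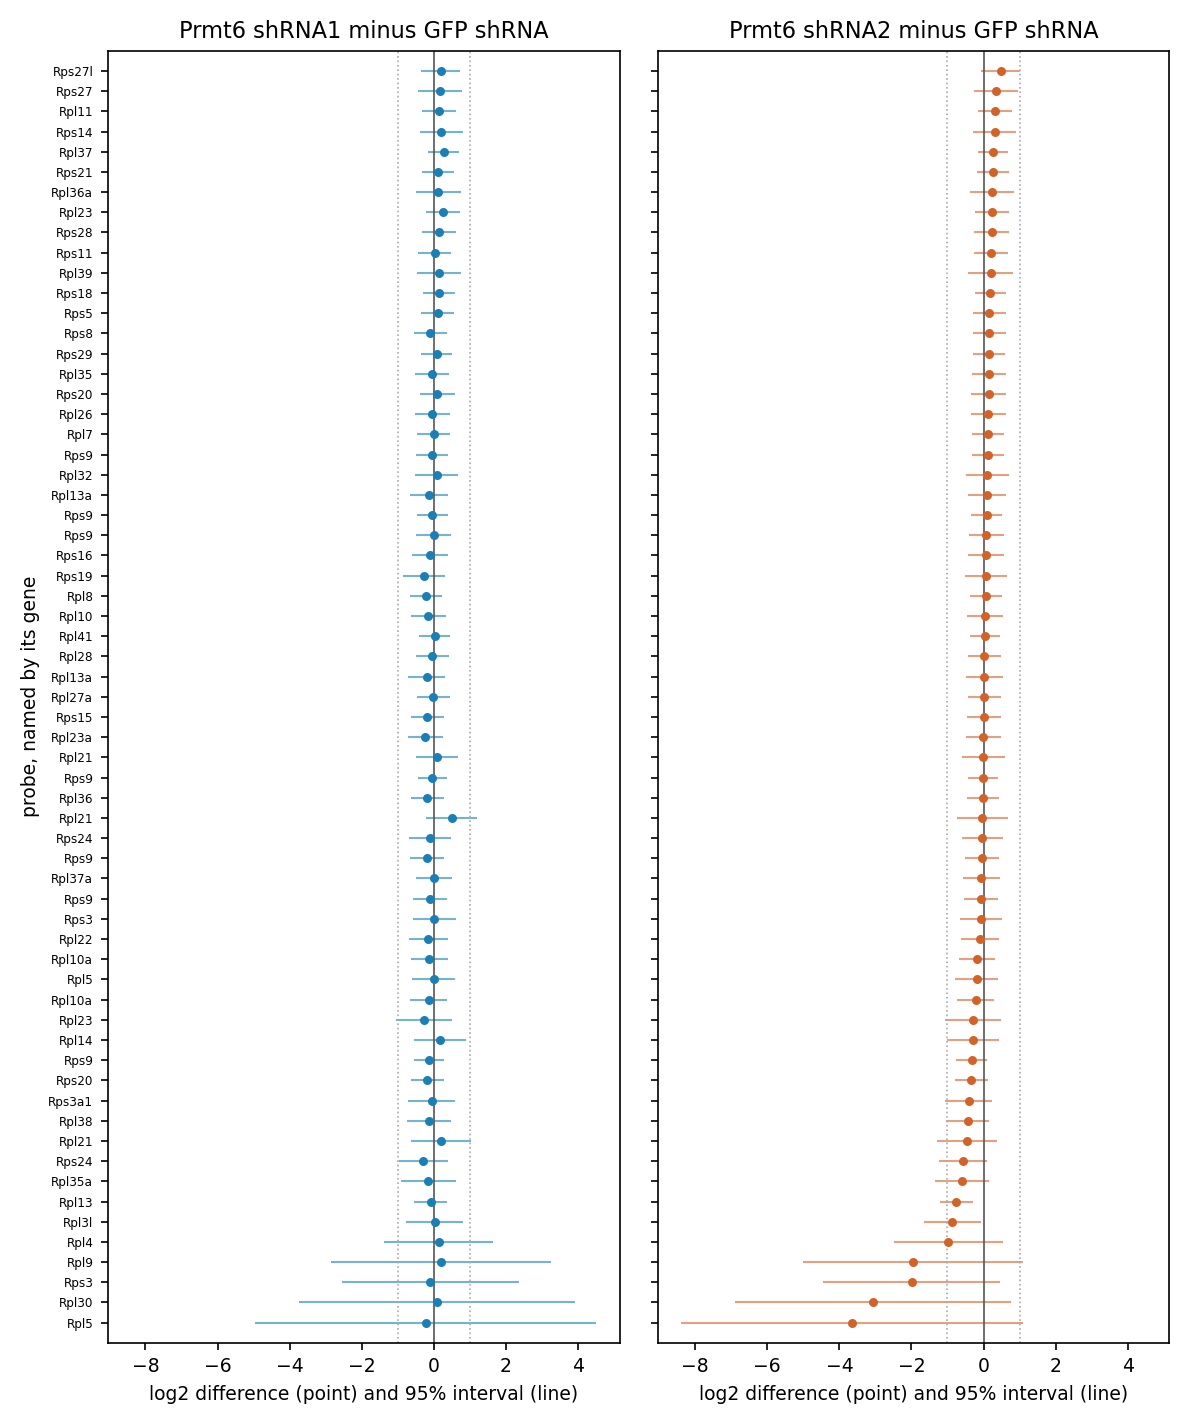
Rows are 63 of the 65 kept ribosomal protein probes, named by gene. Points are log2 differences from the GFP hairpin and lines are 95% intervals from limma, for Prmt6 shRNA1 (left) and Prmt6 shRNA2 (right), with dotted lines at a 2-fold change. Most intervals span 0 inside the dotted lines, and Rpl5, Rpl30, Rps3 and Rpl9 have the widest.

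Some members separated the groups without overlap, in both directions. With both hairpins, 5 member probes lay above both GFP arrays on all 4 Prmt6 arrays, where 13% of all kept probes did. Among them were probes of Rpl23, Rpl37, Rps18 and Rps29. Below lay 4, a probe each of Rpl35a, Rps20, Rps3 and Rps9, where 11.4% of all did. The other kept probes of Rpl23 (-0.27), Rps20 (0.12) and Rps3 (-0.03) overlapped, as did the other Rps9 probes. The Rps3 probe that lay below was 1570017, which dropped on Prmt6 shRNA2 replicate 2, as described below. With Prmt6 shRNA1 alone, 8 members lay above (19.4% of all) and 13 below (22% of all). With Prmt6 shRNA2 alone, 18 lay above (27.9% of all) and 13 below (24.4% of all). Between the hairpins, Prmt6 shRNA2 lay above Prmt6 shRNA1 for 17 members (24.7% of all) and below it for 12 (18.3% of all). No test was made of these shares.

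Rpl13, a large subunit protein, had the lowest difference with Prmt6 shRNA2 among members detected on all 6 arrays, apart from the Rpl9 and Rps3 probes that were low on a single array. It was not among the 6 lowest differences of any comparison, and was singled out after its values were seen. Its probe 580280 had intensities of 35092 and 27638 with the GFP hairpin, 19422 and 28770.1 for Prmt6 shRNA1, and 17179 and 13894 for Prmt6 shRNA2. After normalization these were log2 levels of 14.80 and 14.69, 14.69 and 14.63, and 13.86 and 14.10. Both Prmt6 shRNA2 arrays lay below the other 4, and the Prmt6 shRNA1 arrays did not stand clear of the controls.

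The Rpl13 difference with Prmt6 shRNA2 was -0.76 ± 0.18 (limma SE), with a 95% interval from -1.22 to -0.30, and did not pass adjustment (limma adjusted p = 0.190). With Prmt6 shRNA1 it was -0.08 ± 0.18 (limma adjusted p = 0.973). Between the hairpins it was -0.68 ± 0.18 (limma adjusted p = 0.385). Set within each array against the median of the 57 members detected everywhere, the log2 intensity of Rpl13 stood at 0.57 and 0.52 with the GFP hairpin and 0.29 and 0.41 for Prmt6 shRNA1. With Prmt6 shRNA2 it stood at -0.24 on 1 array and -0.23 on the other. The low value of Rpl13 was thus present beside the other members of the same arrays, and 2 of the 57 members, Rpl9 and Rps3, had a lower difference by this measure. The call depended on the processing. It was called lower with Prmt6 shRNA2 (limma adjusted p of at least 0.0129 over the 20 alternatives) among probes detected on all 6 arrays, with the first probe series alone and with an intensity trend and robust prior, and in none of the other 17. In those 3 alternatives, calls over all probes with Prmt6 shRNA2 also went from 0 to 35 of 5159, 52 of 6852 and 61 of 9138 lower.

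**Figure D2:**
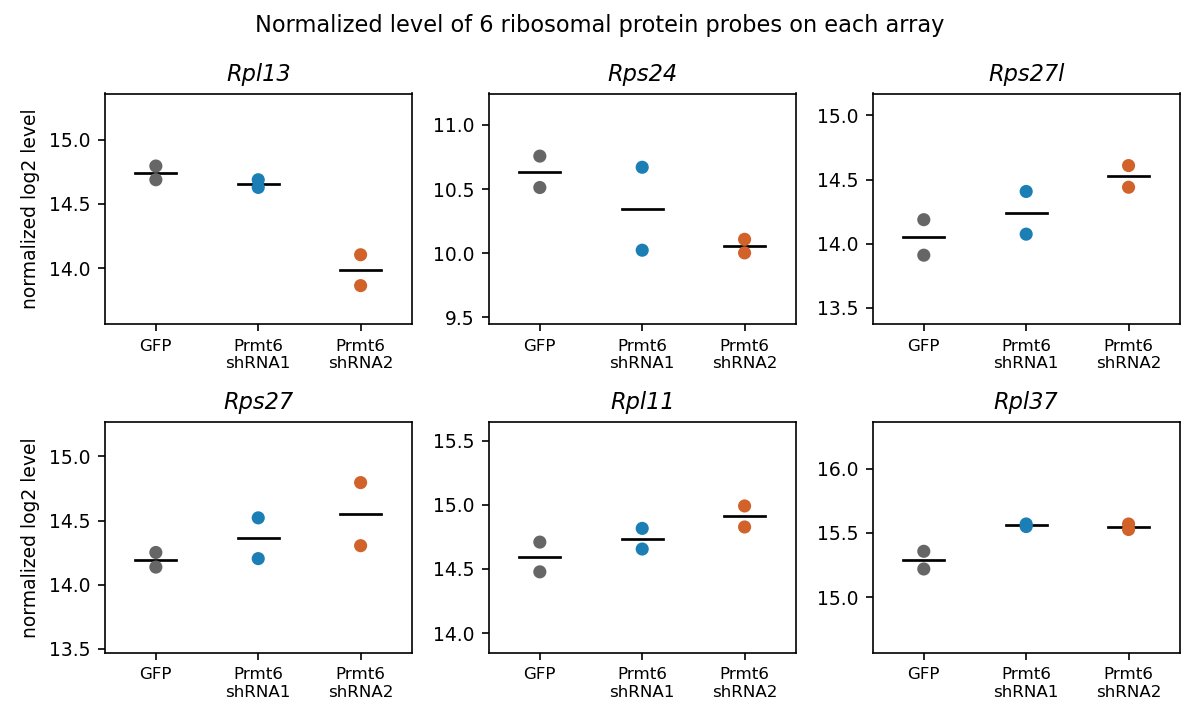
Normalized log2 level of 6 ribosomal protein probes on each array, by hairpin group. Points are arrays and bars are means of 2 arrays, and every panel spans 1.8 log2 units. Rpl13 is low on both Prmt6 shRNA2 arrays, whereas the other 5 genes move by less.

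Rps24, a small subunit protein, had the same order of groups with a wider spread. Its brighter kept probe 5420377 had intensities of 2057 and 1337 with the GFP hairpin, 683 and 2053 for Prmt6 shRNA1, and 1211 and 841 for Prmt6 shRNA2. Of the Prmt6 shRNA1 arrays, 1 lay between the controls and 1 below them. The log2 difference was -0.58 ± 0.27 with Prmt6 shRNA2 (limma adjusted p = 0.373), and its other kept probe 102690538 gave -0.03. Rpl35a, a large subunit protein mutated in Diamond-Blackfan anemia, gave -0.60 ± 0.30 with Prmt6 shRNA2 (limma adjusted p = 0.397). Its log2 levels were 13.21 and 13.10 with the GFP hairpin, 13.02 and 12.98 for Prmt6 shRNA1, and 12.98 and 12.14 for Prmt6 shRNA2, so most of its low mean came from 1 array.

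The highest difference with both hairpins and with Prmt6 shRNA2 was that of Rps27l, a paralog of the small subunit gene Rps27 and a known target of p53. Its probe 50577 had intensities of 22949 and 15715 with the GFP hairpin, 12258 and 24181 for Prmt6 shRNA1, and 23486 and 19409 for Prmt6 shRNA2. On this scale the groups overlapped. The normalized log2 levels were 14.19 and 13.91, 14.07 and 14.41, and 14.44 and 14.61, in which both Prmt6 shRNA2 arrays lay above both controls. The log2 difference was 0.33 ± 0.19 with both hairpins (limma adjusted p = 0.530) and 0.48 ± 0.22 with Prmt6 shRNA2 (limma adjusted p = 0.365). Rps27 itself was 0.36 ± 0.24 higher with Prmt6 shRNA2 (limma adjusted p = 0.485), also short of the threshold. Other p53 targets are given for comparison. Cdkn1a, a cell cycle inhibitor, differed by 1.41 ± 0.17 with both hairpins (probe 6400706, limma adjusted p = 0.0553), Mdm2 by 0.93 ± 0.16 (limma adjusted p = 0.0910) and Trp53 itself by -0.19 ± 0.18 (limma adjusted p = 0.706).

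The other paralog, Rpl3l, is known as a large subunit protein of skeletal and heart muscle. It was near the background, with intensities of 150 and 123 with the GFP hairpin, 71.2 and 188 for Prmt6 shRNA1, and 51.8 and 48.7 for Prmt6 shRNA2, and was detected on 2 arrays. Its difference with Prmt6 shRNA2 was -0.86 ± 0.32 (limma adjusted p = 0.309). Rpl4, another large subunit gene with a kept probe detected on 2 arrays, gave -0.98 ± 0.60 (limma adjusted p = 0.447) from intensities of 225 and 79.2 with the GFP hairpin and 48.6 and 30.4 for Prmt6 shRNA2. Neither probe was detected on a Prmt6 shRNA2 array, so the size of these differences rests on values below the detection limit.

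None of the ribosomal proteins known to act on MDM2 or p53 passed the test. With both hairpins, Rpl11 probe 3780435 differed by 0.23 ± 0.16 (limma adjusted p = 0.621). Rpl23 had kept probes at 0.24 and -0.27, and the Rpl5 probe 840095 gave -0.10. The other kept Rpl5 probe, 105270520, gave -1.94 ± 1.64 (limma adjusted p = 0.665) and dropped on Prmt6 shRNA2 replicate 2, as described below. Rpl26 differed by -0.05 with Prmt6 shRNA1 and 0.14 with Prmt6 shRNA2. The kept probes of Rpl13a, a large subunit protein with a known role outside the ribosome in silencing inflammatory transcripts, gave -0.02 and -0.09 with both hairpins. Rpl32 and Rps18, often used as reference genes, gave 0.10 ± 0.21 and 0.16 ± 0.15. Rps18 lay above both controls on all 4 Prmt6 arrays, at log2 levels of 14.89 and 14.84 with the GFP hairpin and from 14.91 to 15.12 with the Prmt6 hairpins. Among the brightest probes Rpl37 differed by 0.27 ± 0.15 (limma adjusted p = 0.525), with all 4 Prmt6 arrays above both controls, and Rps29 by 0.12 ± 0.15.

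A set of 4 member probes was low on a single array. On Prmt6 shRNA2 replicate 2, probes of Rpl5, Rpl30, Rpl9 and Rps3 lay over 3 log2 units below replicate 1 of the same group. The Rpl5 probe 105270520 had intensities of 8371, 7667, 4889, 7062 and 5913 on the first 5 arrays, in the order GFP, Prmt6 shRNA1 and Prmt6 shRNA2, and 29.5 on the last. In the same order the Rpl30 probe 103610551 ran from 4142 to 6608 and then to 92.9. The Rpl9 probe 102030270 ran from 27621 to 33238 and then to 1433, and the Rps3 probe 1570017 from 8692 to 15470 and then to 819. The first 5 arrays of each probe lay within a 2-fold range, and the last stood apart.

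**Figure D3:**
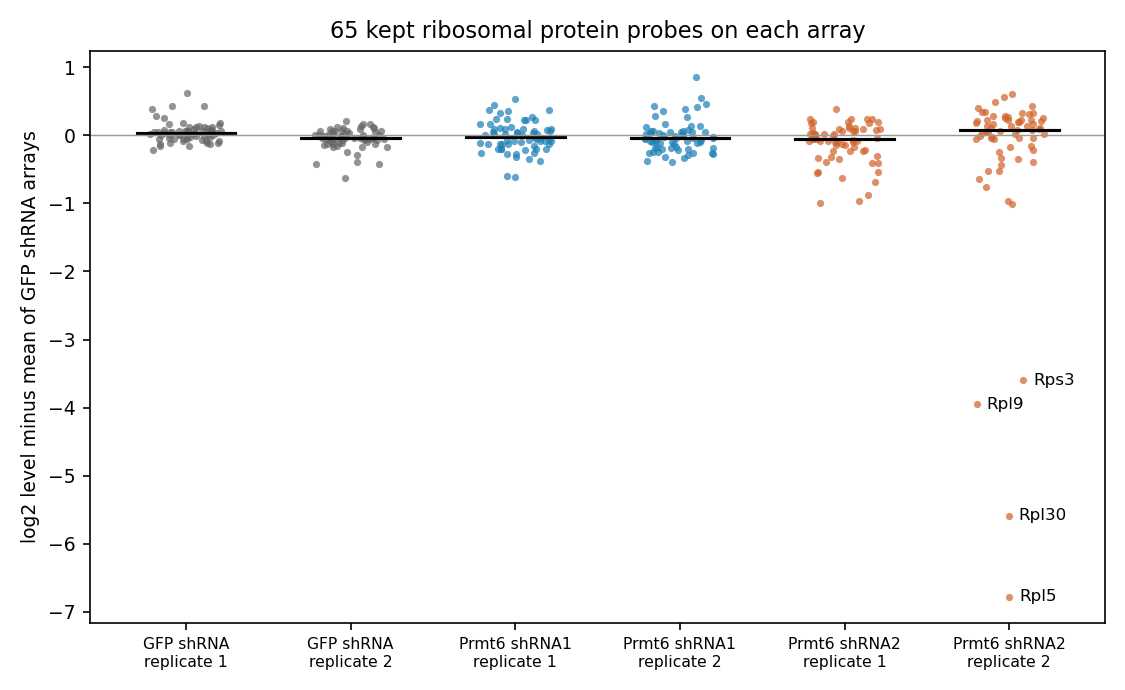
Each point is 1 of the 65 kept ribosomal protein probes on 1 array, as its normalized log2 level minus the mean of the 2 GFP shRNA arrays, with a bar at the array's median. The medians lie near 0 on every array, and the 4 named probes on Prmt6 shRNA2 replicate 2 lie more than 3 log2 units below it.

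Rpl5 and Rps3 had another kept probe, and neither dropped there, whereas Rpl9 and Rpl30 had a single probe each. The Rpl5 probe 840095 had intensities of 14930 and 8245 on the Prmt6 shRNA2 arrays and a difference from the controls of -0.19 ± 0.24. The Rps3 probe 2370170 had 29518 and 21419 and a difference of -0.07 ± 0.24. Of the 4 probes that dropped, 3 belong to the second of the 2 series of probe numbers on the array (IDs of 100010201 and above), which holds 9 of the 65 kept members, and 1 belongs to the first, which holds 56. Over all kept probes the same drop occurred in 235 of 2286 of the second series (10.3%) and 24 of 6852 of the first (0.35%). The drop therefore fell on part of the array beyond the ribosomal proteins, and its part in any difference with Prmt6 shRNA2 was not tested. Over the alternatives, which include leaving out each array, the differences of the 4 probes with Prmt6 shRNA2 varied widely. At their highest they were -0.54 for Rpl5, -0.55 for Rpl30, -0.39 for Rps3 and 0.03 for Rpl9. Without Prmt6 shRNA2 replicate 1 the low array stands alone in its group, its spread is taken from the other groups, and the 4 probes, which were picked for being low on it, differed by -6.80 to -3.605 with Prmt6 shRNA2. They passed there, as did 735 lower probes in all, which restates the drop. Without replicate 2, no member was called in any comparison.

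Genes with several kept probes show how far 1 gene can differ between its probes. There were 9 such genes with 24 probes. Rps9, a small subunit protein, had 7 probes, whose differences with both hairpins ran from -0.23 to 0.04. The probes of Rpl10a gave -0.18 and -0.16, those of Rps24 -0.43 and -0.07, and those of Rps20 0.12 and -0.26. Apart from Rpl5 and Rps3, whose probes lay 1.85 and 1.02 apart, the widest gap was that of Rpl23, at 0.51. That gap was larger than the difference with both hairpins of every kept member probe except those of Rpl5, Rpl30, Rps3 and Rpl9 that dropped. The GFP arrays of its lower probe, 6450673, stood apart, at log2 levels of 11.63 and 10.78. Over the alternatives the difference of that probe ran from -0.70 to 0.15, so the gap is itself uncertain.

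**Figure D4:**
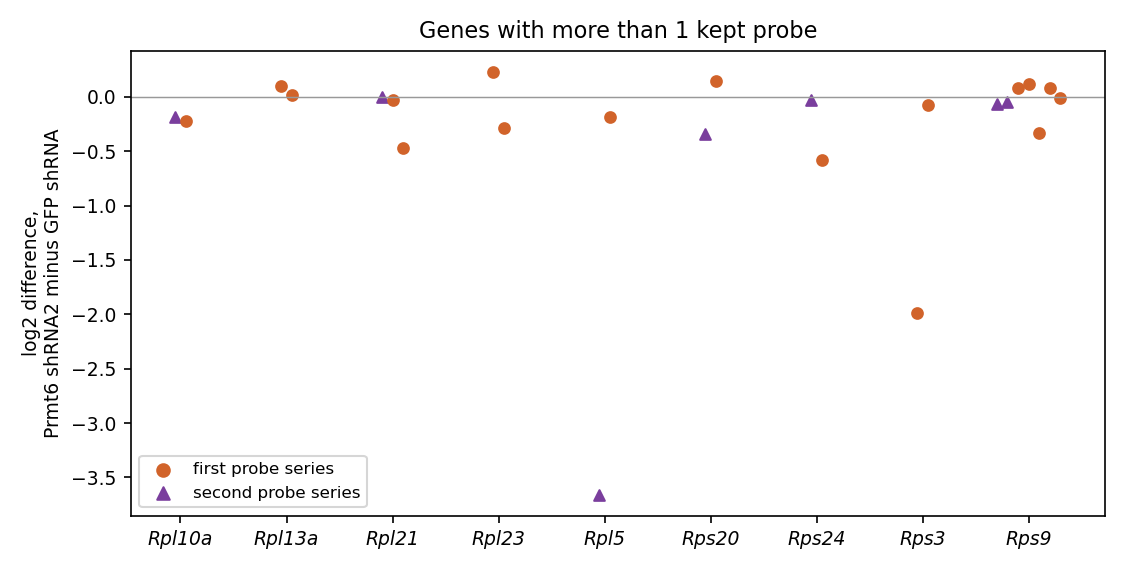
Log2 difference of Prmt6 shRNA2 minus GFP shRNA for every kept probe of the 9 ribosomal protein genes with more than 1, with circles for the first probe series and triangles for the second. The 2 lowest points, of Rpl5 and Rps3, stand beside a second probe of the same gene near 0.

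The wider translation machinery gave no calls with both hairpins either, where 0.317% of all kept probes were called higher and 0% lower. At so low a share, 0 calls in lists of this size say little about the lists. Among proteins of the ribosome that carry other names, Fau, which codes for RPS30 fused to a ubiquitin-like protein, differed by 0.17 ± 0.15 with both hairpins (limma adjusted p = 0.689). None of 22 kept probes of translation factors and other genes known for TOP messengers, Vim and Nap1l1 among them, passed in either direction (median -0.18), nor did any of 22 of other translation factors (median -0.19) or 16 of RNA polymerase I and its partners (median -0.06). Factors that assemble ribosomes had 0 of 54 kept probes called. Of these 54, 44 lay below 0, with a median of -0.18 beside -0.02 over all kept probes. Their median lay below that of all probes in the 18 alternatives in which it was computed, from -0.22 to -0.08 relative to it, with no test of the list. For the ribosomal protein probes the same relative median ran from -0.06 to 0.05 and changed sign in 3 of 18. Mitochondrial ribosomal proteins, made by a separate gene set, had 0 of 92 called and a median of -0.07. A relative median below 0 in all 18 alternatives was not particular to the assembly factors. It ran from -0.23 to -0.13 for the TOP list, with 17 of its 22 probes below 0 in the main analysis. For the other translation factors it ran from -0.23 to -0.04, and for mitochondrial ribosomal proteins from -0.105 to -0.016. For RNA polymerase I and its partners it changed sign in 2 of 18.

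Among markers of other cell types, 3 keratin genes passed the test. The summed intensity of 7 trophectoderm markers on the array was 951 and 1312 on the GFP arrays, 11253 and 17436 for Prmt6 shRNA1 and 2721 and 3923 for Prmt6 shRNA2, and the probes of Krt7, Krt18 and Krt8, simple epithelial keratins, were called higher with both hairpins. The kept probes of Cdx2 (0.47, limma adjusted p = 0.590) and Gata3 (1.77, limma adjusted p = 0.0586) did not pass, and Eomes and Elf5 were detected on no array. The summed intensity of 9 embryonic stem cell markers ran from 28546 to 43180 with the GFP hairpin and from 15731 to 27611 over the Prmt6 arrays, with 0 of 13 kept probes called. For 8 endoderm markers it ran from 3986 to 4724 with the GFP hairpin and from 5090 to 11094 over the Prmt6 arrays, with 0 of 5 called. These sums are not normalized, and the mean intensity of an array ran from 201.5 to 345.3. On the normalized scale the median difference with both hairpins was -0.67 for embryonic stem cell markers, with all 13 kept probes below 0. It was 2.77 for trophectoderm and 1.055 for endoderm markers, with all 5 kept probes of each above 0. The part of these marker differences in the ribosomal protein values was not tested.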

How the data were processed

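The deposited table without normalization holds bead intensities from which the authors had subtracted background. Beside each the authors deposited a detection score per the file headers, a fraction from 0 to 1, and 1 minus that score served as the detection p-value. Per the submitters' processing notes lumi was used for the log2 values that the authors also deposited, and those ranked the probes of every array as the intensities did. The array build is not given in the sources used here. Intensities were processed with neqc (background correction, offset 16, quantile normalization) of limma 3.58.1 under R 4.3.3. A group-means model over all 6 arrays was fitted with lmFit and eBayes, probe by probe, and tested on simulated data. No batch or scan date is labelled. The number of arrays limits the precision. The smallest p that an exact two-sided rank-sum test allows is 0.133 for 4 against 2 arrays and 0.333 for 2 against 2. The members, the lists and the alternatives were chosen with earlier results of these data known. Named were the 6 largest rises and falls in each comparison, the paralogs, the p53-linked and reference members and genes whose probes lay over 1 log2 unit apart. Rpl13, and the values of Rpl35a and Rps24 with Prmt6 shRNA2, were added after their values were seen. The promoter windows are RefSeq's. A few measured genes are counted but not reported by name here.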

Additional observations from a re-analysis of the deposited data

How the results depend on the processing

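No member was called higher under any of the 20 alternatives. With Prmt6 shRNA2, 1 member (Rpl13) was called lower among probes detected on all 6 arrays, with the first probe series alone and, in an alternative chosen after seeing the data, with an intensity trend and robust prior, which also called 1 between the hairpins (all probes lower: 35 of 5159, 52 of 6852 and 61 of 9138 with Prmt6 shRNA2, and 36 between the hairpins, against 0 and 3). Leaving out each array in turn gave from 0 to 4 members lower with both hairpins, with Prmt6 shRNA2 and between the hairpins, the 4 being those lost on Prmt6 shRNA2 replicate 2, when replicate 1 was left out (556, 735 and 646 of 9053 probes lower in all), and 0 with Prmt6 shRNA1. The members' median then ran from -0.055 to 0.045 with both hairpins, from -0.049 to 0.008 with Prmt6 shRNA1, from -0.054 to 0.089 with Prmt6 shRNA2 and from -0.012 to 0.12 between them. Median scaling in place of quantile normalization moved the members' medians to -0.129, 0.057, -0.278 and -0.374 in that order, and those of all probes to -0.065, 0.099, -0.203 and -0.343. Other moved medians were -0.059 between the hairpins with cyclic loess, -0.086 with Prmt6 shRNA2 when each probe series was normalized alone, and, with the first series alone, -0.107 with both hairpins and -0.092 with Prmt6 shRNA2; the cause was not tested. Of 63 named differences, 27 changed sign under at least 1 alternative, Rpl9 with both hairpins and with Prmt6 shRNA2 among them, and none of these was called in the main analysis. Calls over all probes with both hairpins, 29 higher and 0 lower, became 185 and 37 among probes detected on all arrays, 212 and 64 with the first series alone, 261 and 55 with the trend, 80 and 10 on the authors' log2 values, 59 and 1 with array weights, 56 and 0 with an offset of 50, 4 and 0 with median scaling or without the filter, 179 and 556 without Prmt6 shRNA2 replicate 1, and 0 and 0 without any other single array. Same-numbered replicates had deviations correlating at -0.66 (GFP and Prmt6 shRNA1), 0.11 (GFP and Prmt6 shRNA2) and -0.34 (the Prmt6 hairpins). These values did not show that equal numbers mark paired samples, and they cannot settle whether samples were paired. Levels on GFP replicate 1 correlated at 0.943 with Prmt6 shRNA1 replicate 1 and 0.966 with its replicate 2. For GFP replicate 2 those values were 0.96 and 0.939. Variation shared between groups under unlike numbers was not modelled, and its source was not tested. With the replicate block, 0 members and 0 probes in all were called.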
